A study of Mus musculus with 8 samples.

Results

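The comparison described here sets cells given EBF1-H240A, a version of the transcription factor EBF1 in which the histidine at position 240 is replaced by alanine, against cells given wild-type EBF1. Its members were chosen by label alone: the 3 arrays labelled Ebf1-H240A and the 3 labelled Ebf1wt, 6 of the 8 arrays in the series. The remaining 2 arrays, labelled Empty, come from cells that received the vector without an EBF1 insert and are used for reference levels. All 3 groups share 1 starting population: c-Kit+ fetal liver cells of C57Bl/6 background that lack functional endogenous Ebf1 (genotype Ebf1-/-), enriched on magnetic columns and cultured on OP9 stromal feeder cells with 4% FCS, IL-7 at 5 ng/ml, Flt3 ligand at 10 ng/ml and SCF at 10 ng/ml. They were transduced with the retroviral vector pMys-IRES-GFP, which was empty or carried Ebf1wt or Ebf1-H240A, and GFP+ cells were sorted 36 h later for RNA. The retroviral promoter, not the Ebf1 locus, drives the protein in both groups. No label says whether the replicates are separate cultures, litters or transductions, so the p-values rest on the scatter of these arrays alone, part or all of which may be technical.

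EBF1 is the factor that, with PAX5 and E2A, commits lymphoid progenitors to the B cell lineage. It binds DNA as a homodimer through a DNA-binding domain that carries a zinc-coordinating motif, and it activates genes of the pre-B cell receptor while it silences genes of other lineages. The histidine replaced here has been studied as a contact between EBF1 and CNOT3. CNOT3 belongs to CCR4-NOT, the main machinery that shortens the poly(A) tails of mRNAs. The comparison asks which part of the response to EBF1 needs that residue.

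Each array measured cRNA in a single colour, and the values used are log2 intensities after each array was scaled to a common 75th percentile. The arrays had a 75th percentile of 231.8 to 325.9 intensity units, 54.56% to 59.64% of their probes well above background, and no saturated spots; their number limits the precision. Markers of hematopoietic progenitors (Ptprc, Kit, Flt3, Cd34 and Spn) were above background on all 8 arrays. Of 7 hepatocyte markers Alb, Afp, Apoa1, Ttr and Serpina1b were above background on none, and Ahsg and Trf on all 8. The summed level was 597 to 600 in Empty, 197 to 226 with Ebf1wt and 90.9 to 93.3 with Ebf1-H240A. Between the proteins Trf overlapped (4.99, 5.16 and 4.94 with Ebf1wt, against 5.12, 5.09 and 4.91), so the sum followed Ahsg. A longer list of hepatocyte genes summed to 11100 to 11700, 66400 to 78100 and 53300 to 63000 in that order. Of its 4 tested genes 1 was called higher and 1 lower. Ahsg, a gene for a secreted plasma glycoprotein of the liver, was at 9.02 and 9.05 in Empty, 7.54, 7.26 and 7.26 with Ebf1wt, against 5.69, 5.63 and 5.68 with Ebf1-H240A (-1.69, SE 0.08, adjusted p = 0.000609 in the limma fit, called with any 1 array left out). Of the erythroid list Klf1 was above background on none and the hemoglobin gene Hbb-bt on all 8, and the list summed to 8330 to 9290, 969 to 1090 and 750 to 763 in the same order. Of 6 myeloid markers Elane was above background on none and the other 5, the bright Lyz2 among them, on all 8. Pax5 of the B-lineage list was above background on none. Of 12 OP9 stromal markers 10 were above background on at least 1 array. Their sum is mostly Thy1 (82.1% to 93.4%), which lymphoid cells also express; without Thy1 it ran from 941 to 1000 in Empty, 1920 to 2240 with Ebf1wt and 2410 to 2520 with Ebf1-H240A, and with it from 14200 to 14800, 16800 to 21500 and 13500 to 16800. The part of these cells in the differences below was not tested. Ebf1wt 3 had the highest of these sums with Thy1 (21500). It also stood apart on the second principal component, at -3.26 against -30.0 and -26.3 for the other Ebf1wt arrays. The Ebf1-H240A arrays were at 6.22, 24.0 and 22.4 there. Ebf1wt 3 correlated with Ebf1-H240A 2 at 0.9917 and with Ebf1wt 1 and 2 at 0.9914 and 0.9905. Results are therefore given with and without Ebf1wt 3 where it matters. The arrays lie on 2 slides that each hold both proteins, with Ebf1wt 2, Ebf1-H240A 1 and Ebf1-H240A 2 on slide 1, and Ebf1wt 1, Ebf1wt 3 and Ebf1-H240A 3 on slide 2.

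Between the proteins a minority of genes passed the test, and a few of them differed by large factors. Of 16309 genes tested, 1038 were called at an adjusted p under 0.05, which is 6.36% of all genes; 594 of them (3.64%) were higher with Ebf1-H240A and 444 (2.72%) lower. The fitted change was at least 2-fold for 108 of the higher and 68 of the lower genes, and the median absolute difference of the called genes was 0.559 on the log2 scale. The median of all genes was 0.021 on that scale. For none of the 1038 called genes did the 3 Ebf1-H240A arrays overlap the 3 Ebf1wt arrays. Groups that do not overlap are also common among all genes: every Ebf1-H240A array was above every Ebf1wt array for 2765 genes and below for 2108.

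**Figure D1:**
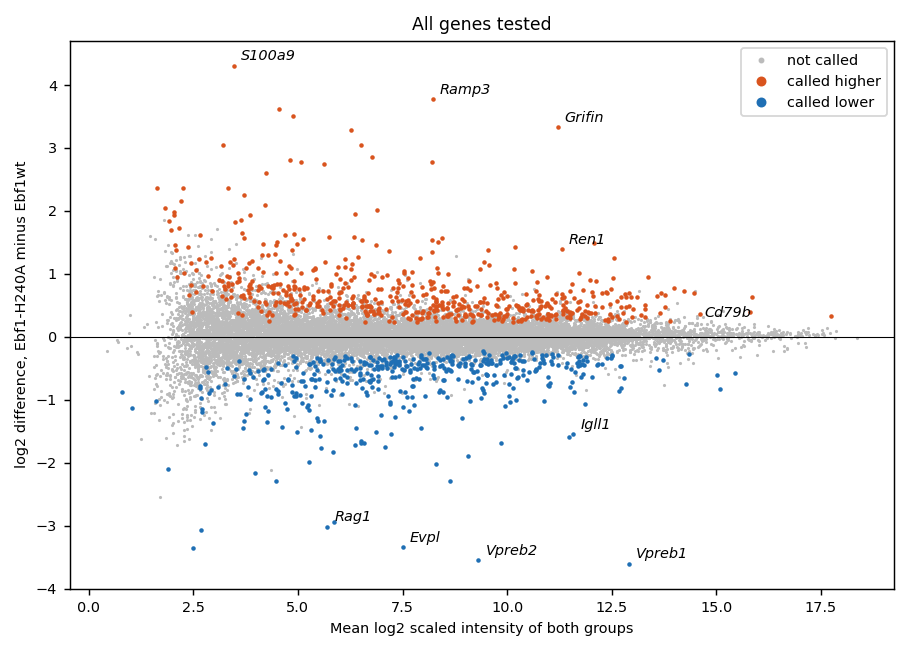
Difference between the proteins (Ebf1-H240A minus Ebf1wt, log2) against the mean log2 scaled intensity of both groups for the 16309 genes tested; orange points are the 594 genes called higher and blue points the 444 called lower. Vpreb1, Vpreb2, Evpl and Rag1 lie lowest among the labelled genes, S100a9, Ramp3 and Grifin highest, and Cd79b near 0.

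The number of calls depended on single arrays. It was 683 without Ebf1wt replicate 3, 365 without Ebf1wt 1, 441 without Ebf1wt 2, 448 without Ebf1-H240A 1, 449 without Ebf1-H240A 3, 839 without Ebf1-H240A 2 and 826 without 1 or both Empty arrays. A call is said to hold below when it passed in all 8 of these fits; 293 of the 1038 did. For lost calls the highest adjusted p over these fits is given, which, where no array is named, came without Ebf1wt 1, Ebf1wt 2 or Ebf1-H240A 1 or 3. Blocking on the slide gave 646 calls, which included 618 of the 1038.

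The pre-B cell receptor held the largest losses among B-lineage genes. Its surrogate light chain is made of VPREB and lambda5 (the product of Igll1), which pair with the immunoglobulin heavy chain in place of a light chain, and CD79A and CD79B carry the signal into the cell. Of 6 members tested, 3 were called lower (50.0% against 2.72% of all genes), none was higher and 3 did not pass. The median difference was -1.49 against 0.021 for all genes.

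Vpreb1 was at 14.88, 14.66 and 14.61 on the Ebf1wt arrays and at 10.94, 11.43 and 10.97 on the Ebf1-H240A arrays, and at 5.92 and 5.54 on the Empty arrays. The mutant arrays thus lay between both other groups, with no overlap. The difference was -3.60 (SE 0.17, n = 3 per group, adjusted p = 0.000609 by limma's moderated test), which is 12.2-fold lower, and it was -3.48 within slide 1 and -3.78 within slide 2. Vpreb2, a near-copy of Vpreb1 on the same chromosome whose probe may share signal with it, was at 11.38, 11.10 and 10.79 with Ebf1wt, against 7.35, 7.86 and 7.40 with Ebf1-H240A. It was 11.7-fold lower (-3.55, SE 0.22, adjusted p = 0.000994). Igll1 was at 12.62, 12.21 and 12.24 with Ebf1wt, at 10.77, 10.96 and 10.71 with Ebf1-H240A, and not above background on either Empty array. It was 2.92-fold lower (-1.55, SE 0.14, adjusted p = 0.00296), a smaller log2 difference than that of Vpreb1, which was not itself tested. All of these 3 calls held, and both kept probes of Igll1 gave the same sign.

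Cd79b was at 14.40, 14.36 and 14.53 with Ebf1wt, against 14.68, 14.72 and 14.57 with Ebf1-H240A, and at 9.41 and 9.57 in Empty. Both proteins raised it over Empty, and the difference between them, 0.23 (SE 0.08), did not pass (adjusted p = 0.138). Cd79a, read by a dim probe at 3.06 to 3.65 with Ebf1wt and 3.15 to 3.31 with Ebf1-H240A, differed by -0.03 (SE 0.22, adjusted p = 0.948). Vpreb3, which encodes a chaperone-like partner of the complex, was at 5.68 to 5.92 with Ebf1wt and 4.24 to 4.46 with Ebf1-H240A, but its Empty arrays differed from each other (5.70 and 3.25) and the difference of -1.43 (SE 0.55) did not pass (adjusted p = 0.18). With either Empty array out of the limma fit the same difference passed (adjusted p = 0.00346; 0.00346 to 0.42 over all alternatives), and the groups of the 2 proteins did not overlap.

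**Figure D2:**
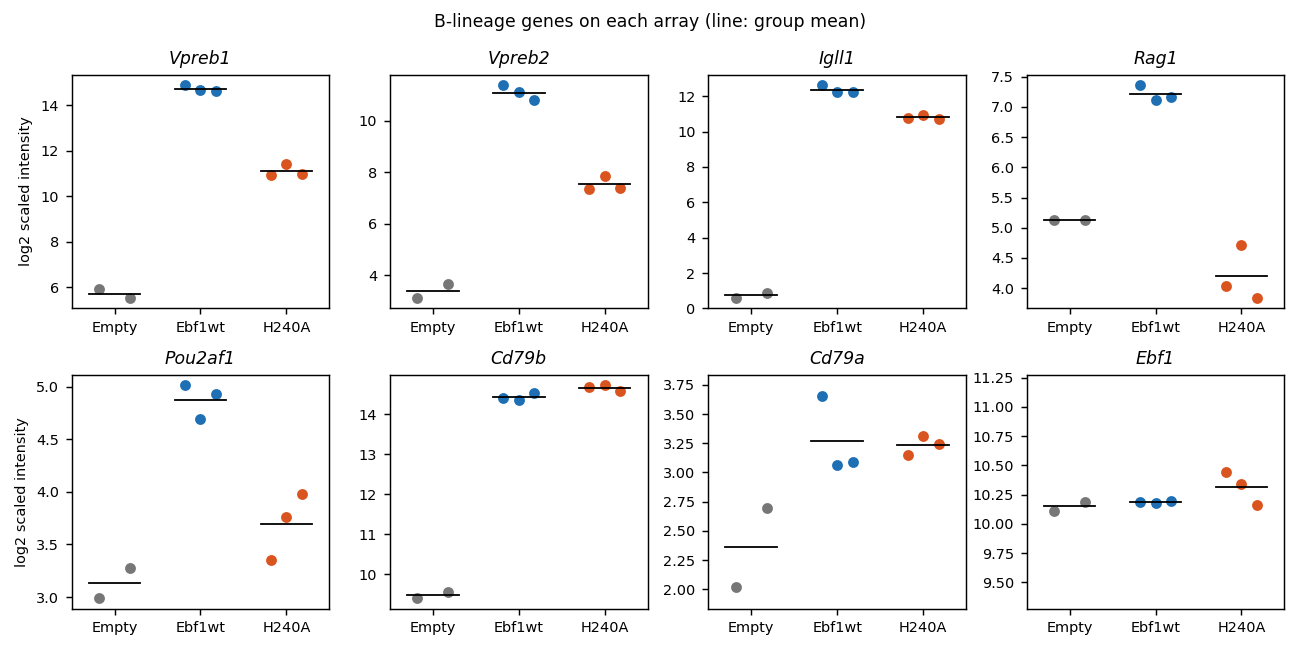
Log2 scaled intensity of 8 genes on each array (points) with the group mean (line) for Empty (2 arrays), Ebf1wt (3) and Ebf1-H240A (3); the vertical scale differs by panel. Vpreb1, Vpreb2, Igll1, Rag1 and Pou2af1 are lower with Ebf1-H240A than with Ebf1wt, while Cd79b, Cd79a and Ebf1 are not separated by the test.

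The upstream regions of the pair of surrogate light chain genes with a called loss and a shared sequence feature are shown here because EBF1 is known to bind near both starts. They are the 250 bases before each start as RefSeq gives them on GRCm38.p6, read 5′ to 3′ on the gene's strand, with matches to TCCC, any 3 bases and GGGA in capitals. This pattern was searched on both strands, which read the same. It was written down after these promoters had been read and has 1 more spacer base than the usual way of writing the EBF palindrome, TCCC, any 2 bases and GGGA. Vpreb1 is at chr16:16869256-16869505 and Igll1 at chr16:16863986-16864235, both on the minus strand.
Vpreb1: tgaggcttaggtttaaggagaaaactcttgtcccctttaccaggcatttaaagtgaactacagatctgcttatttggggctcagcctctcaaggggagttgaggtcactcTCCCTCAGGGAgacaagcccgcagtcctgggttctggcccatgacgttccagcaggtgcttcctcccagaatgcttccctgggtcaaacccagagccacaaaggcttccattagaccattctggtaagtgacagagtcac
Igll1: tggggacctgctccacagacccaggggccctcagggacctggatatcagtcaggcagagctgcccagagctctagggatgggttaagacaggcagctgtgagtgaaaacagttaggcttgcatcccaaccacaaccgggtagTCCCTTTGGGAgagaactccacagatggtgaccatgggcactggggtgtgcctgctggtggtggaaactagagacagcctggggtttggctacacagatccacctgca
Each holds 1 match, which begins 140 bases before the start of Vpreb1 and 108 bases before the start of Igll1. The pattern occurs in the same window of 0.796% of the 27025 genes in the promoter table and of 0.974% of the 10888 tested genes found there. It occurs in 8 of 305 genes called lower (2.62%) and in 8 of 399 called higher (2.01%). The 8 called lower include Vpreb1 and Igll1, whose promoters had been read before the pattern was written. Their matches were thus fixed in advance, and no conclusion is drawn from the share among genes called lower. The palindrome with 2 spacer bases occurs in 1.08% of the tested genes, 2.30% of those called lower and 1.75% of those called higher. Neither pattern was found in the windows of Vpreb2, Cd79a or Rag1.

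Rag1, 1 partner in the enzyme pair that cuts antigen receptor loci for V(D)J joining, was the other B-lineage gene with a large loss. It was at 7.36, 7.12 and 7.17 with Ebf1wt, at 4.03, 4.71 and 3.84 with Ebf1-H240A, and at 5.12 and 5.12 in Empty. The mutant arrays were below the Empty arrays as well as the wild-type ones. The difference was -3.02 (SE 0.22, adjusted p = 0.00135), or 8.12-fold, with the same sign for all 3 kept probes, and the call held. Rag2 was above background on only 1 array, of Ebf1wt, and was not tested. Elsewhere in the list of recombination and end-joining factors, Polm, a polymerase of end joining, was higher by 0.55 (adjusted p = 0.0253), 12 of 14 members did not pass and the median was -0.08. Dntt, the terminal transferase, differed by -0.18 (SE 0.21, adjusted p = 0.68).

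Among 18 B-lineage transcription factors 2 were lower, 1 higher and 15 did not pass (16.7% called against 6.36% of all genes). Pou2af1, the coactivator OCA-B, was at 5.01, 4.69 and 4.93 with Ebf1wt, against 3.35, 3.76 and 3.98 with Ebf1-H240A, a difference of -1.18 (SE 0.18, adjusted p = 0.0146). Myb was lower by a smaller step (-0.48, adjusted p = 0.0227) and Arid3a higher (0.34, adjusted p = 0.0247). None of these calls held: Pou2af1 reached an adjusted p of 0.0614 without Ebf1wt 1, Myb was lost in 3 of 8 fits (up to 0.0875 without Ebf1wt 1) and Arid3a in 5 (up to 0.0889 without Ebf1-H240A 1). After normexp background correction the difference of the dim Pou2af1 was -0.26 (adjusted p = 0.232). Foxo1 (-0.33, SE 0.11, adjusted p = 0.142), Irf4 (-0.10, SE 0.08, adjusted p = 0.552) and Lef1 (-0.06, SE 0.12, adjusted p = 0.837) did not pass, and Pax5 was not detected on any array. Ebf1 itself was at 10.18 to 10.20 with Ebf1wt, 10.16 to 10.44 with Ebf1-H240A and 10.11 to 10.19 in Empty. Since it read much the same with the empty vector (0.13 between the proteins, SE 0.08, adjusted p = 0.415), this probe gives no measure of the transgenes. Another Ebf1 probe was dim, with means of 2.62 in Empty, 1.91 with Ebf1wt and 2.81 with Ebf1-H240A. It was above background on 1 Empty, no Ebf1wt and 2 Ebf1-H240A arrays. The amounts of both proteins were not measured here.

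The E protein antagonists Id1 (0.61, adjusted p = 0.0227) and Id2 (0.44, adjusted p = 0.0266) were the 2 called members of 6 in their list (33.3% against 6.36% of all genes). Both were higher with Ebf1-H240A. Id1 was lost in 4 of 8 fits with 1 array left out and Id2 in 5 (each up to an adjusted p above 0.05 without Ebf1wt 1: 0.0875 and 0.097).

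Surface genes of later B cells went both ways. Tnfrsf13c, the BAFF receptor, fell from 7.22, 7.46 and 7.29 with Ebf1wt to 6.60, 6.34 and 6.54 (-0.83, adjusted p = 0.00729), and Cd93 rose from 12.38, 12.31 and 12.36 to 12.89, 12.82 and 13.03 (0.57, adjusted p = 0.00729). Both calls held. Ms4a1, which encodes CD20, was at 7.12 to 7.49 with Ebf1wt and 8.42 to 8.82 with Ebf1-H240A (1.25, adjusted p = 0.034), but was lost in 6 of 8 fits with 1 array left out, with an adjusted p up to 0.107 without Ebf1-H240A 3. Of the later B cell list, 3 of 18 members passed, 16.7% against 6.36% of all genes, with a median of 0.02.

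Antigen receptor signalling genes were called more often than the background, mainly as losses, while both lists as a whole were close to evenly split. In the T cell receptor list, which holds proximal kinases and adaptors that lymphoid progenitors also use, 6 of 28 members were lower and 1 was higher. The share called was 25.0% against 6.36% of all genes, while the median was -0.05. With members that did not pass, 14 differences were above 0 and 14 below. Sit1, an inhibitory adaptor, fell from 4.99, 4.88 and 4.92 to 3.48, 3.48 and 3.78 (-1.35, SE 0.09, adjusted p = 0.00126), close to its 3.40 and 3.45 in Empty. Zap70, a SYK-family kinase, fell from 8.44, 8.08 and 8.18 to 6.94, 7.38 and 6.85 (-1.18, SE 0.16, adjusted p = 0.0112). The kinase Lck (-0.64, adjusted p = 0.00587) and the scaffold Lat (-0.69, adjusted p = 0.00874) were lower than with Ebf1wt, which had itself lowered them: Lat was at 8.54 and 8.41 in Empty, 7.20, 7.04 and 7.02 with Ebf1wt, against 6.38, 6.29 and 6.52 with Ebf1-H240A. These 4 calls held; Cd27 (-0.41), Ubash3a (-0.54) and the adaptor Lcp2 (0.64) were lost in 3, 5 and 7 of the 8 fits (up to 0.0836, 0.087 and 0.108). With normexp correction Sit1 was at an adjusted p of 0.213.

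In the B cell receptor list 4 of 22 members were lower and 2 higher (27.3% called against 6.36% of all genes). Of these calls 2 held, both lower. With members that did not pass, 12 differences were above 0 and 10 below, with a median of 0.03. Cd24a, a glycoprotein of early B cells, fell from 10.76, 10.42 and 10.34 to 9.42, 9.58 and 9.69 (-0.95, adjusted p = 0.0107), and this call held. Blk (-0.57), Fcrla (-0.36), Syk (0.41) and Lyn (0.38) were each lost in 6 or 7 of the 8 fits, with an adjusted p up to 0.127, 0.131, 0.102 and 0.139.

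Among cytotoxic effectors, Gzma, which encodes granzyme A, had a mean of 10.57 in Empty and was at 11.41, 11.37 and 11.43 with Ebf1wt, against 10.62, 10.65 and 10.72 with Ebf1-H240A (-0.74, SE 0.06, adjusted p = 0.00218, held). Prf1, the perforin gene, was lower (-0.81, adjusted p = 0.0188; lost in 3 of 8 fits, up to 0.0654), Tyrobp was higher by 0.40 (adjusted p = 0.02; lost in 5, up to 0.077), and 16 of 19 members did not pass.

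Genes of the lymphoid alternatives to the B lineage were affected unevenly. Gata3, a T and innate lymphoid factor that both proteins lowered, was at 9.74 and 9.65 in Empty, 7.86, 7.99 and 8.02 with Ebf1wt, against 8.25, 8.27 and 8.30 with Ebf1-H240A (0.32, SE 0.06, adjusted p = 0.0331). Nfil3 (0.25) and Zbtb7b (0.37) were also higher and Ets1 lower (-0.80), so 4 of 14 factors were called, 28.6%. None of the 4 held: Gata3 and Nfil3 were lost in each of the 8 fits (up to 0.105 and 0.136), Zbtb7b and Ets1 in 7 (up to 0.147 and 0.11).

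The called Notch pathway genes were all higher with Ebf1-H240A, while the list as a whole was evenly split. Of 23 members tested 5 were called higher (21.7% against 3.64% of all genes) and none lower. Counting members that did not pass, 12 differences were above 0 and 11 below, from -0.53 to 2.01, with a median of 0.03. Heyl, a Notch-response repressor, was not above background in Empty and rose from 5.90, 5.92 and 5.80 with Ebf1wt to 7.81, 7.92 and 7.94 (2.01, SE 0.22, 4.04-fold, adjusted p = 0.00545). Lfng, a glycosyltransferase that modifies Notch receptors, was at 8.67 and 8.80 in Empty, 7.81, 7.51 and 7.43 with Ebf1wt, against 8.42, 8.33 and 8.35 with Ebf1-H240A (0.78, SE 0.10, adjusted p = 0.0101). Both calls held. The ligands Jag2 (1.01, adjusted p = 0.0196) and Dll1 (0.56, adjusted p = 0.0141) and the receptor Notch2 (0.46, adjusted p = 0.0281) were lost in 3, 2 and 6 of the 8 fits, with an adjusted p up to 0.0689 (Jag2, without Ebf1-H240A 3), 0.0565 (Dll1, without Ebf1-H240A 1) and 0.0972 (Notch2, without Ebf1wt 1).

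All called myeloid granule genes were higher with Ebf1-H240A. Of 26 granule and lysosomal genes, 24 were above and 2 below their Ebf1wt level, with a median of 0.29; 7 were called higher (26.9% against 3.64% of all genes) and none lower. Without Ebf1wt 3 the median was 0.31 and 4 were called higher, and the median was 0.19 within slide 1 and 0.43 within slide 2. S100a9, a subunit of calprotectin, was not above background on any Empty or Ebf1wt array and was at 5.24, 4.97 and 6.65 with Ebf1-H240A, at least 7.39-fold higher (adjusted p = 0.0152); the bound sets the mutant mean against the dimmest signal that counts as detected on the Ebf1wt arrays. Its call was lost without Ebf1wt 1 (adjusted p = 0.0582). Mpo, the myeloperoxidase gene, was at 9.25 and 8.92 in Empty, 6.22, 6.03 and 6.15 with Ebf1wt, against 7.65, 7.98 and 7.16 with Ebf1-H240A. It thus fell under both proteins and less far under the mutant (difference 1.47, SE 0.20, adjusted p = 0.0117, held). Fcnb, a ficolin of granulocyte precursors, was induced from below background to 7.72, 7.57 and 7.68 by Ebf1wt and to 9.29, 8.88 and 9.50 by Ebf1-H240A (1.56, SE 0.21, adjusted p = 0.00968, held). Prtn3 (0.57), Ncf1 (0.31) and Lyz1 (0.71) were lost in 3, 6 and 7 of the 8 fits, up to 0.0631, 0.101 and 0.144.

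The myeloid regulators followed the same pattern with 1 exception: 5 of 14 were higher, 1 was lower (42.9% called against 6.36% of all genes) and the median was 0.41. Cebpb, a C/EBP factor of myelopoiesis, rose from 12.68, 12.84 and 12.85 to 13.55, 13.35 and 13.36 (0.63, SE 0.08, adjusted p = 0.00888, held). Klf4, a factor of monocyte differentiation, went the other way, from 10.60, 10.55 and 10.53 to 9.81, 9.63 and 9.78 (-0.82, SE 0.06, adjusted p = 0.0018, held). Cebpd (0.89), Csf2rb (0.66), Csf2rb2 (0.64), near-identical copies of a cytokine receptor chain whose probes may share signal, and Id2 were each lost in 5 to 7 of the 8 fits, up to 0.105 for Cebpd, 0.153 for Csf2rb and 0.137 for Csf2rb2. Without Ebf1wt 3 the count was 2 higher and 1 lower. In sorted but mixed progenitors, more myeloid cells and more myeloid RNA per cell cannot be told apart. The summed level of the 6 myeloid markers was 28900 to 38000 with Ebf1-H240A and 17600 to 23600 with Ebf1wt, with Ebf1wt 3 the highest of its group. Lyz2 was by far the brightest (13.83, 14.25 and 14.31 with Ebf1wt, against 15.01, 14.56 and 14.99). Mpo, Prtn3 and Csf1r were also higher on every mutant array, Itgam overlapped (7.78, 7.96 and 7.68 against 8.16, 7.57 and 8.31) and Elane was not detected. The part of myeloid cell content in these differences was not tested.

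All called genes of the dendritic cell list were lower instead. Of 12 dendritic genes 4 were called lower (33.3% against 2.72% of all genes) and none higher, with a median of -0.06. With members that did not pass, 5 differences were above 0 and 7 below. Clec10a, a lectin of dendritic cells and macrophages, was at 7.39, 7.34 and 7.30 with Ebf1wt, against 5.87, 5.62 and 5.56 with Ebf1-H240A (-1.66, SE 0.09, adjusted p = 0.000699). Ly6d, which marks B-biased lymphoid progenitors, was at 14.61 and 14.50 in Empty, 15.53, 15.49 and 15.51 with Ebf1wt, against 14.64, 14.76 and 14.65 with Ebf1-H240A (-0.82, SE 0.06, adjusted p = 0.00135), so the mutant left it near its Empty level. Flt3, the Flt3 ligand receptor, fell from 10.71, 10.63 and 10.38 to 9.92, 9.93 and 9.91 (-0.66, adjusted p = 0.0109). These 3 calls held. Siglech was not above background on any array of either protein, so its call has no measured size.

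Progenitor surface genes did not move as a block (2 of 24 higher, 3 lower, 20.8% called against 6.36% of all genes, median -0.08). Cd34 fell from 14.09 and 13.97 in Empty to 11.94, 12.22 and 12.16 with Ebf1wt and to 12.90, 12.86 and 12.81 with Ebf1-H240A (difference 0.75, SE 0.09, adjusted p = 0.0066). Cd33 was at 7.97 to 8.15 with Ebf1wt and 8.86 to 8.89 with Ebf1-H240A (0.81, adjusted p = 0.00296). Cd9 was lower (-0.63, adjusted p = 0.00729), and these 3 calls held. Kit, by which the cells were enriched, was at 9.76 to 9.86 with Ebf1wt and 9.29 to 9.64 with Ebf1-H240A and did not pass (-0.34, SE 0.09, adjusted p = 0.0802). Of 27 erythroid and heme genes 2 were higher and 4 lower (22.2% called). Lmo2, a progenitor and erythroid regulator, was the 1 whose call held (0.53, adjusted p = 0.00729), while Hbb-bt (-0.45) and the transferrin receptor gene Tfrc (-0.61) were lost in 4 and 3 of the 8 fits, up to 0.057 and 0.0631.

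**Figure D3:**
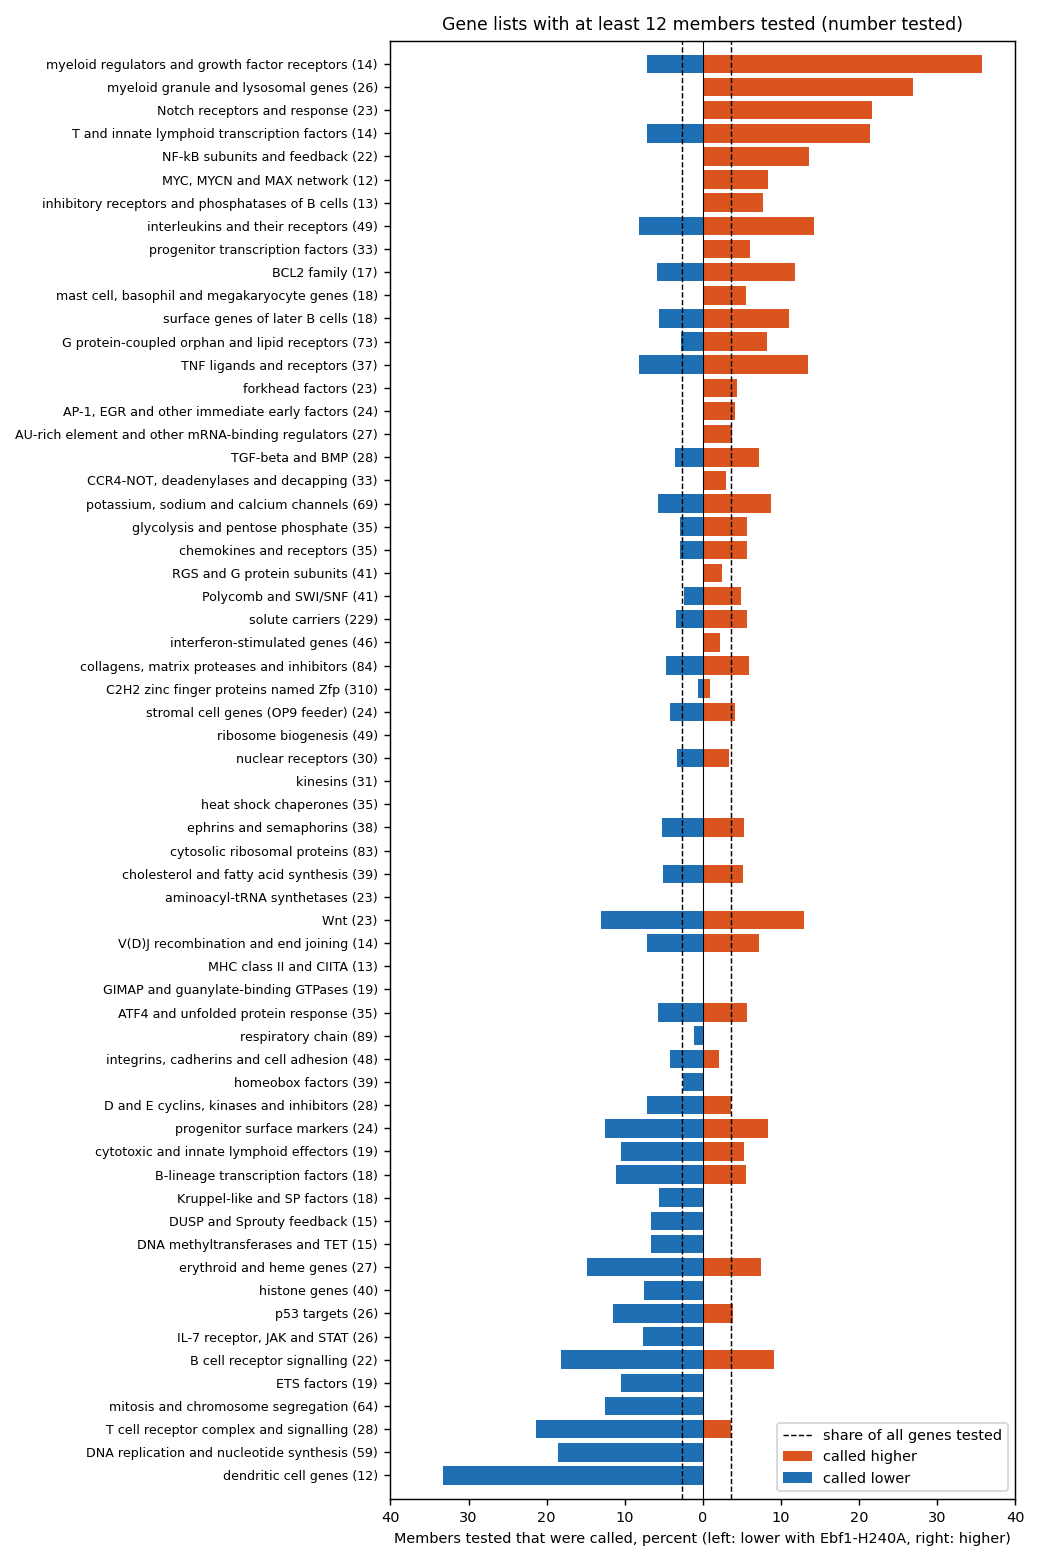
Share of the tested members of each gene list that was called higher (orange, right) or lower (blue, left) with Ebf1-H240A, for lists with at least 12 tested members; numbers in brackets are members tested and dashed lines the shares among all genes, 3.64% and 2.72%. Myeloid and Notch lists stand at the top, and the DNA replication, T cell receptor and dendritic cell lists at the bottom; the lists of ribosomal proteins, kinesins and heat shock chaperones have no called member.

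Cytokine systems had called members in both directions. Of 49 interleukins and receptors 7 were higher and 4 lower (22.4%); counting members that did not pass, 37 differences were above 0 and 12 below, with a median of 0.11 (0.14 without Ebf1wt 3, 0.08 within slide 1 and 0.21 within slide 2). Il12rb1, a chain of the IL-12 receptor, was at 9.86 and 9.92 in Empty, 8.56, 8.66 and 8.76 with Ebf1wt, against 9.43, 9.38 and 9.49 with Ebf1-H240A (0.78, SE 0.07, adjusted p = 0.00296). Il2ra, the alpha chain of the IL-2 receptor, fell to 7.07, 7.07 and 7.16 from 7.82, 7.64 and 7.73 (-0.63, adjusted p = 0.00729). Il20ra was below background with both proteins and has no measured size. Il7r, the receptor of a cytokine in this medium, was lower by a small step (-0.36, SE 0.07, adjusted p = 0.0291), as was the STAT5 target Cish (-0.33, adjusted p = 0.0277); they were lost in 7 and 5 of the 8 fits, up to 0.102 and 0.0978. In the list of the IL-7 receptor, JAKs and STATs these were the 2 called of 26, 7.69%. The interleukin counts themselves ran from 3 to 11 when 1 array was left out, and 3 of the 11 calls held.

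In the TNF family 5 of 37 ligands and receptors were higher and 3 lower (21.6%). Tnfrsf18, the receptor GITR, rose from 11.35, 11.46 and 11.51 to 12.13, 12.26 and 12.16 (0.74, SE 0.06, adjusted p = 0.00278). Tnfrsf21 (0.61, adjusted p = 0.00729) and Lta, the lymphotoxin gene (0.61, adjusted p = 0.0112), were also higher. Tnfrsf11a, the receptor RANK, was above background on 2 Ebf1wt arrays and no Ebf1-H240A array, at least 1.63-fold lower (adjusted p = 0.00599; 0.946 after normexp correction). These calls held, with that of Tnfrsf13c. Tnf was higher by 0.53 (adjusted p = 0.0124) and was lost without Ebf1wt 1 alone (0.0547). The NF-kB list had 3 of 22 higher and none lower (13.6%), with a median of 0.12; Bcl3 (0.67), Ikbke (0.42) and Traf3 (0.41) were lost in 2, 5 and 7 fits, up to 0.0597, 0.101 and 0.135.

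Cell cycle genes had small negative differences as a list. Of 59 genes of DNA replication and nucleotide synthesis 57 were below their Ebf1wt level, with a median of -0.23 and a range of -0.61 to 0.16; 11 were called lower (18.6% against 2.72% of all genes) and none higher. Of 64 genes of mitosis and chromosome segregation 61 were below, with a median of -0.24 and a range of -0.65 to 0.06; 8 were called lower (12.5%) and none higher. Histone genes had a median of -0.23, with 3 of 40 called lower (7.5% against 2.72% of all genes). The medians were -0.26 and -0.18 for replication within slides 1 and 2, -0.23 and -0.22 for mitosis, and -0.28 and -0.26 without Ebf1wt 3, in the order replication and mitosis.

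Cenpn, a centromere protein, was at 7.63, 7.56 and 7.52 with Ebf1wt, against 6.91, 6.81 and 7.05 with Ebf1-H240A (-0.65, SE 0.07, adjusted p = 0.00645), and Impdh1, an enzyme of guanine nucleotide synthesis, was at 11.77, 11.58 and 11.59 against 11.18, 11.19 and 11.14 (-0.47, SE 0.07, adjusted p = 0.0117). Their calls held, as did those of Cenph (-0.45, adjusted p = 0.0103) and, in the DNA methylation list, Uhrf1 (-0.60, adjusted p = 0.0111). Of the 2 kept probes of Cenph 1 had the opposite sign. None of the other 10 replication calls and 6 mitosis calls held: the polymerase subunit gene Pold1 (-0.45) was lost without Ebf1wt 1 (0.0602), Mcm5 (-0.41) of the replicative helicase in 5 of 8 fits (up to 0.0809), and the topoisomerase gene Top2a (-0.41) in 7 (up to 0.101). The number of calls ran from 1 to 8 for replication and from 2 to 6 for mitosis when 1 array was left out. Ccnd3, the D cyclin of early B cells, was at 12.94, 12.94 and 13.03 against 12.48, 12.49 and 12.52, thus lower (-0.47, adjusted p = 0.00991, held). Another D cyclin gene, Ccnd1, was called higher (0.44), but its call did not hold (adjusted p up to 0.0731 without Ebf1wt 1). Of 28 D and E cyclins, kinases and inhibitors 1 was higher and 2 lower (10.7% called against 6.36% of all genes), with a median of -0.14. Mki67 (-0.19, SE 0.09, adjusted p = 0.252), Myc (0.01, SE 0.09, adjusted p = 0.957), Mycn (0.06, SE 0.11, adjusted p = 0.815) and Ccnd2 (-0.03, SE 0.07, adjusted p = 0.845) did not pass, although both proteins had lowered Mycn from 12.97 and 12.76 in Empty to 9.80 to 10.08 (Ebf1wt) and 9.90 to 10.14 (Ebf1-H240A).

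**Figure D4:**
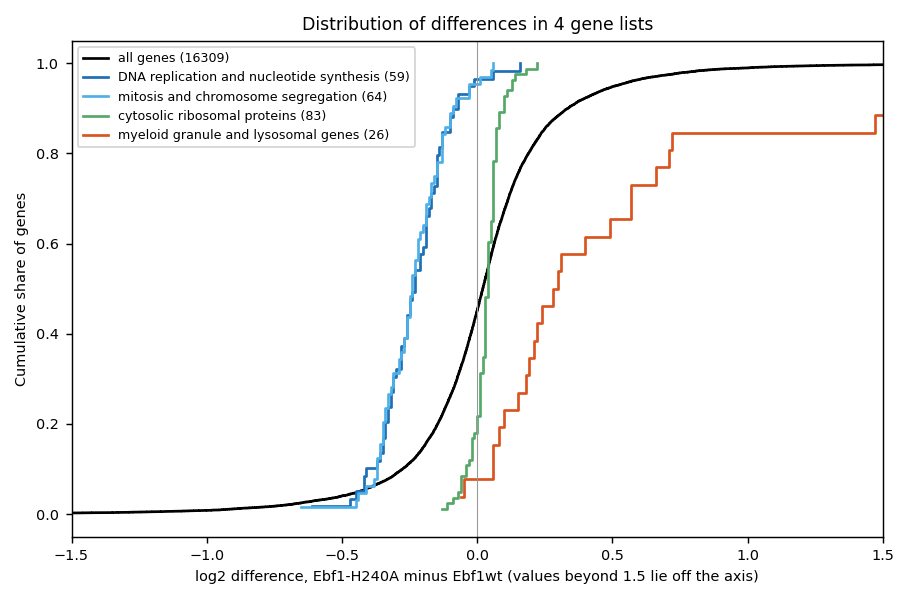
Cumulative share of genes against the log2 difference (Ebf1-H240A minus Ebf1wt) for all 16309 genes and 4 lists, with the number of genes in brackets. The curves of DNA replication (median -0.23) and mitosis (median -0.24) lie left of 0, that of ribosomal proteins rises steeply near 0 (median 0.04), and that of myeloid granule genes lies to the right (median 0.29).

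Several families had no call or almost none. None of 83 cytosolic ribosomal proteins, 49 ribosome biogenesis factors, 23 aminoacyl-tRNA synthetases, 35 heat shock chaperones, 31 kinesins, 13 MHC class II genes or 19 GIMAP and guanylate-binding GTPases passed. The ribosomal proteins ranged from -0.13 to 0.22, with 65 above 0 and 18 below (median 0.04). Of the synthetases 21 of 23 differences were below 0 (median -0.13), and of the ribosome biogenesis factors 39 of 49 (median -0.09). At an unadjusted p under 0.05 the limma fit gave 3, 13, 9, 9, 9, 2 and 7 genes of these lists in the same order. Among all genes it gave 3720 of 16309 at that threshold, and 6.36% were called. In the shorter lists few calls would be met at that share, so having none does not show that a family was unaffected. The respiratory chain had 1 of 89 called, interferon-stimulated genes 1 of 46, homeobox factors 1 of 39 and Zfp zinc finger genes 5 of 310 (1.61%). Of the interferon-stimulated genes 39 differences were above 0 and 7 below, with a median of 0.09 (0.16 without Ebf1wt 3). In the CCR4-NOT, deadenylase and decapping list 1 of 33 passed (3.03% against 6.36% of all genes). It was Btg3 (0.32, adjusted p = 0.023, lost in 5 of 8 fits, up to 0.0865). Cnot3 itself was at 9.71 to 9.92 with Ebf1wt and 9.84 to 9.97 with Ebf1-H240A (0.06, SE 0.07, adjusted p = 0.701). The list of AU-rich element and other mRNA-binding regulators likewise had 1 of 27 called (3.7%).

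The largest increases fell mostly outside the blood lineage lists. Ramp3, a partner protein of calcitonin-family receptors, was at 4.34 and 3.74 in Empty, 6.33, 6.36 and 6.30 with Ebf1wt, against 10.01, 10.07 and 10.25 with Ebf1-H240A, a further 13.7-fold (3.78, SE 0.15, adjusted p = 0.000609). Grifin, a galectin-related gene, went from 9.83, 9.80 and 8.99 to 12.85, 12.86 and 12.90 (3.33, adjusted p = 0.00107), and the fibronectin-repeat membrane protein gene Flrt1, not above background in Empty, from 5.35, 5.34 and 5.35 to 8.15, 8.58 and 7.91 (2.86, adjusted p = 0.000802). In these cases Ebf1wt raised the gene over Empty and the mutant raised it further. The proteoglycan gene Gpc1 (2.78), the glucagon receptor gene Gcgr (2.77), the acute-phase gene Orm1 (3.51) and the lipid droplet gene Cidec (2.82) had adjusted p-values of 0.000994, 0.000994, 0.00296 and 0.0123. The calls of these 7 genes held. The steroid reductase gene Srd5a2 (3.62, adjusted p = 0.0155), the channel subunit gene Kcne1 (3.05, adjusted p = 0.0125) and Klra2 were lost in 3, 1 and 2 of 8 fits, up to 0.0597, 0.0511 and 0.0545; Klra2 was not above background with Ebf1wt and was at least 3.87-fold higher (adjusted p = 0.0137).

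The largest decreases after Vpreb1 and Vpreb2 included Evpl, the envoplakin gene of the epithelial cornified envelope. It was at 4.47 and 4.46 in Empty, 9.55, 9.02 and 8.97 with Ebf1wt, against 5.54, 5.93 and 6.03 with Ebf1-H240A (-3.35, SE 0.19, 10.2-fold, adjusted p = 0.000802). Scgb1c1, a secretoglobin gene, fell from 7.27, 7.25 and 7.49 to 4.21, 4.46 and 4.51 (-2.94, adjusted p = 0.000609). Aldh1a3, a retinaldehyde dehydrogenase gene, was above background on every Ebf1wt array and on none of the others, at least 3.16-fold lower with Ebf1-H240A (adjusted p = 0.00884). Htra3, a serine protease gene (-2.30), Mc1r, the melanocortin receptor gene (-2.29), Parvb, a focal adhesion gene (-2.16), the neuronal tubulin gene Tubb3 (-2.02) and the JNK scaffold gene Mapk8ip1 (-1.99) had adjusted p-values of 0.00126, 0.00494, 0.00456, 0.00296 and 0.000609. Their calls held. Tubb3 was at 7.76 and 7.54 in Empty, 9.58, 9.13 and 9.20 with Ebf1wt, against 6.94, 7.47 and 7.43 with Ebf1-H240A, so only the wild-type arrays lay above Empty. Shisa7 was lower at the level of the background (at least 1.29-fold, adjusted p = 0.0238) and was lost in 4 of 8 fits (up to 0.0865) and after normexp correction (0.883).

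Matrix, channel and transport families contained single large changes. Of 84 collagens, matrix proteases and inhibitors 5 were higher and 4 lower (10.7% called against 6.36% of all genes), with a median of 0.03. Col16a1 rose from 4.72, 4.40 and 4.79 to 7.67, 8.26 and 7.84 (3.28, SE 0.19, adjusted p = 0.000807) and Col5a3 from 5.33, 5.19 and 5.62 to 7.14, 7.34 and 7.50 (1.95, SE 0.14, adjusted p = 0.00147). Col17a1, above background on 1 Ebf1wt array (1.86, adjusted p = 0.00446; 0.07 after normexp correction), and Adam11 (0.68, adjusted p = 0.00598) were higher too. These 4 calls held, while Mmp11 was lower (-1.08, adjusted p = 0.0134; lost in 2 of 8 fits, up to 0.056). The feeder cells make collagens as well: of 24 tested genes of the OP9 stromal list 1 was higher (Pdgfrb, 0.41) and 1 lower (Timp2, -0.45), both lost in 7 of 8 fits (up to 0.106 and 0.138). Col1a1 of that list was at 4.81, 4.42 and 5.01 with Ebf1wt, against 5.34, 5.27 and 5.45 with Ebf1-H240A, higher on every mutant array (0.61, SE 0.17, adjusted p = 0.0847). Col3a1 was at 4.86, 4.55 and 5.55 against 5.51, 5.11 and 5.63 (0.43, SE 0.27, adjusted p = 0.409), and these groups overlap. Thy1 makes up 40.3% to 54.7% of the list's summed level; without it the sum was 13400 to 16000 with Ebf1wt and 15200 to 16400 with Ebf1-H240A, and with it 28400 to 35300 and 27500 to 29500. The list's median difference was 0.03 with all arrays and 0.18 without Ebf1wt 3, and its part in the matrix differences was not tested.

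Ren1 and Ren2, the renin genes, were strongly induced by both proteins and more by the mutant. Ren1 was not above background in Empty, at 10.62, 10.56 and 10.65 with Ebf1wt, against 11.82, 12.34 and 11.84 with Ebf1-H240A (1.39, SE 0.20, adjusted p = 0.0132; lost in 2 of 8 fits, up to 0.0559). Ren2 was at 9.51, 9.41 and 9.53 against 10.73, 11.19 and 10.82 (1.43, SE 0.19, adjusted p = 0.00954, held). As near-identical copies their probes may share signal. Of 229 solute carriers 13 were higher and 8 lower (9.17% called against 6.36% of all genes). Slc14a1, the urea transporter gene, was lower (-0.95, adjusted p = 0.00135) and Slc1a4, a neutral amino acid transporter gene, higher (0.54, adjusted p = 0.00487), and both held. Of 69 potassium, sodium and calcium channels 6 were higher and 4 lower (14.5%). Trpm2, a calcium-permeable channel of leukocytes, rose from 3.83, 3.87 and 3.54 to 5.45, 4.80 and 5.51 (1.51, adjusted p = 0.00957, held). Of 73 orphan and lipid G protein-coupled receptors 6 were higher and 2 lower; Gpr155 rose from 6.98, 7.06 and 7.01 to 8.02, 8.13 and 8.03 (1.04, SE 0.06, adjusted p = 0.000699, held). Among nuclear receptors Thrb fell to below background (at least 2.11-fold, adjusted p = 0.00577, held; 0.901 after normexp correction) and Pparg rose (0.49, adjusted p = 0.01, held).

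Some genes had fitted means on opposite sides of their Empty level under the 2 proteins. There were 18 such genes with a named model that were called in opposite directions against Empty and called between the proteins. Against Empty, 6264 genes were called for Ebf1wt (38.4%) and 7272 for Ebf1-H240A (44.6%); these comparisons share the Empty arrays, so only values are set side by side. Apof, an apolipoprotein gene, was at 6.55 and 6.71 in Empty, 7.69, 7.60 and 7.57 with Ebf1wt, against 6.10, 6.04 and 6.18 with Ebf1-H240A (-1.51 between the proteins, SE 0.07, adjusted p = 0.000609). Btla, an inhibitory lymphocyte receptor gene, was at 4.22 and 4.40 in Empty, 3.43, 3.48 and 3.58 with Ebf1wt, against 4.84, 4.70 and 4.86 with Ebf1-H240A (1.30, SE 0.08, adjusted p = 0.000807). Lyl1, a progenitor basic helix-loop-helix factor gene, was at 11.19 and 11.10, 10.40 to 10.54 and 11.30 to 11.53 in the same order (0.95, adjusted p = 0.00218), and the tubulin gene Tubb6 at 9.56 and 9.51, 8.86 to 9.10 and 10.12 to 10.17 (1.14, adjusted p = 0.000994). These calls held.

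**Figure D5:**
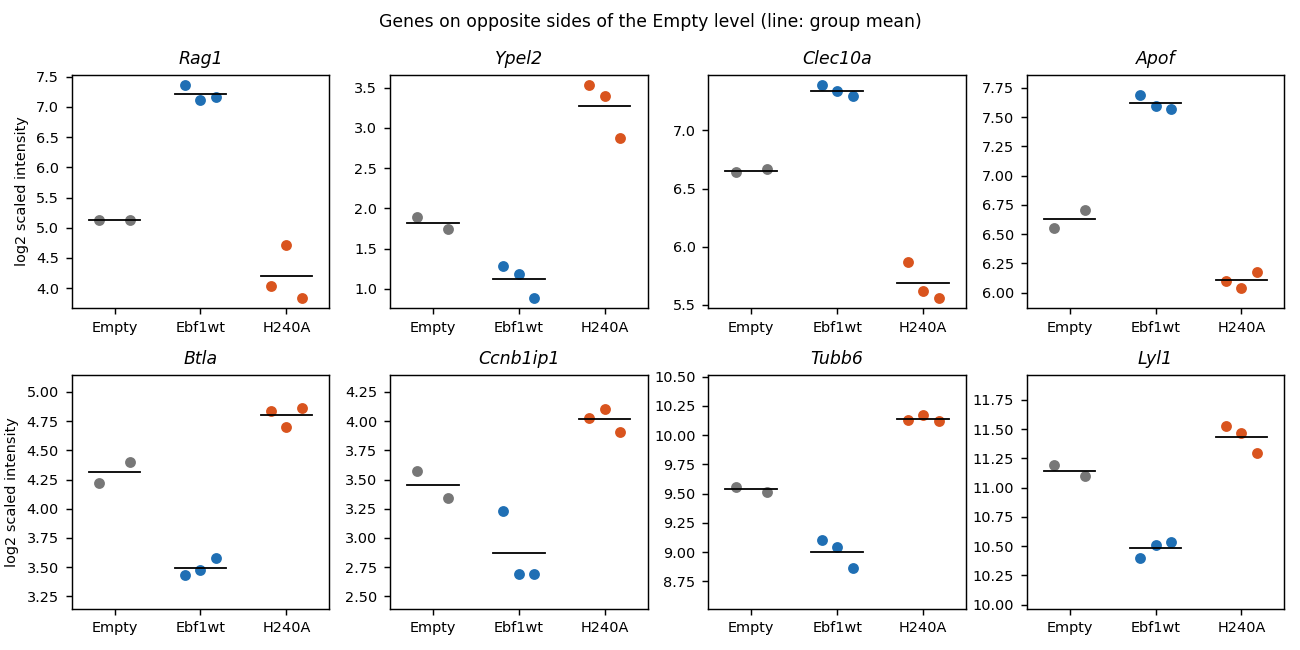
Log2 scaled intensity on each array (points) with the group mean (line) for 8 genes called in opposite directions against Empty and between the proteins; the vertical scale differs by panel. Rag1, Clec10a and Apof are above Empty with Ebf1wt and below it with Ebf1-H240A, and Btla, Ccnb1ip1, Tubb6 and Lyl1 the reverse; Ypel2 is above background only with Ebf1-H240A, so its side of Empty with Ebf1wt is not established.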

How the data were processed

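RNA from 8 samples (2 Empty, 3 Ebf1wt, 3 Ebf1-H240A) was labelled with Cy3 from 0.2 µg and hybridised to Agilent mouse arrays, and per the submitters' processing notes the images were read with Agilent Feature Extraction 10.5.1.1. The intensity values are the processed signals of the deposited scanner files, after spatial and multiplicative detrending and not normalized between arrays, per the file headers; the deposited 0 or 1 flags of each spot mark signal well above background, saturation and outliers. The deposited value table holds the authors' log2 values; set against the scanner files its columns correlated at 0.9865 to 0.992 and had medians of 4.903 to 4.929, with the normalization behind them not stated in the sources used here. Probe positions in the files are on mm9, which is not the build of the promoter sequences.

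From these files, 43379 non-control spots were averaged to 41174 probes; intensities were scaled to a common 75th percentile, raised to a floor of 1 and put on the log2 scale. The 25007 probes well above background on at least 2 of 8 arrays gave 16309 genes, each read by its probe with the highest mean. limma 3.58.1 in R 4.3.3 (lmFit, eBayes, all 8 arrays, no covariate, 5 residual degrees of freedom) tested Ebf1-H240A minus Ebf1wt with Benjamini-Hochberg adjustment at 0.05. On simulated data for this comparison over 16309 genes it called 45 and 46 of 50 genes changed by -2 and 2, 37 and 37 of 50 changed by -1 and 1 (log2), and 11 unchanged genes. The simulated noise was drawn independently for each gene and array, so deviations that many genes share on an array were absent. These rates need not carry over to the real arrays. Gene names came from RefSeq accessions (27816 probes), current symbols (5503), older symbols (380) or the file (7475).

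A size written as at least N-fold sets the detected group's mean against, on each array of the other group, the higher of the probe's own signal and the lowest signal of any probe above background. The members, the 68 gene lists and the tests were chosen with earlier results of these data known. Named genes were the 12 largest called increases and decreases with a named model, up to 4 called members with the smallest adjusted p per list, a fixed set of B-lineage, T-lineage and cell cycle genes, and the 8 largest differences among genes on opposite sides of Empty; others were chosen after their values were seen, as were 5 further lists and the stromal sums without Thy1. Promoter windows without a match are not printed. Same-numbered arrays of the proteins did not deviate together (correlations 0.162, -0.228 and 0.0916), so replicate numbers were not used as pairs. Some genes are not reported here.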

Additional observations from a re-analysis of the deposited data

Results flagged for a closer look

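Of the genes whose fitted means lay on opposite sides of Empty under the 2 proteins and differed between them in the limma fit, the 8 with the largest differences are given as Ebf1-H240A minus Ebf1wt on the log2 scale; the difference between the proteins is the tested quantity, with 3 arrays per group. Rag1 (-3.02), Clec10a (-1.66) and Apof (-1.51) were above Empty with Ebf1wt and below it with Ebf1-H240A. Btla (1.30), Tubb6 (1.14), Lyl1 (0.95) and Ccnb1ip1 (1.14) were below Empty with Ebf1wt and above it with Ebf1-H240A. Ccnb1ip1 was above background on 1 of 3 Ebf1wt arrays. Ypel2 (2.15) was above background on no Ebf1wt or Empty array, so its side of Empty with Ebf1wt is not established and its difference between the proteins is only a bound of at least 1.45-fold. After normexp background correction neither passed (adjusted p = 0.456 for Ccnb1ip1 and 0.631 for Ypel2).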

How the results depend on the processing

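The count of 1038 called genes (594 higher, 444 lower, 176 with a fitted fold of at least 2, median of all genes 0.021) moved with the processing, and the cause was not tested. It was 652 (348 higher, 83 at least 2-fold, median 0.001) in the deposited value table; 338 (188 higher, 150 lower, median -0.041) with no filter, which adds dim genes; 646 (366 higher, 280 lower) with the slide as a block; and 1751 (959 higher, 792 lower) with a trended robust prior. Within slide 1 and within slide 2, with 1 residual degree of freedom, limma called 0 genes (0 higher, 0 lower, 0 at least 2-fold), with 1526 and 1600 genes at an unadjusted p under 0.05; the median was 0.043 within slide 2. Normexp correction gave 391 higher and 47 at least 2-fold, the filter for all arrays 90 at least 2-fold, and quantile normalization a median of 0.005. With the replicate block 360 genes were called (208 higher, 152 lower); the numbers do not pair the arrays. Leaving out 1 array gave 365 to 839 calls, 205 to 479 higher, 160 to 360 lower, 117 to 181 at least 2-fold and medians of 0.012 to 0.03.

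Of 218 named called genes, 161 stayed called with normexp, 214 with quantile normalization, 150 in the value table, 102 with no filter, 161 with the slide block, 92 with the replicate block and 105 to 183 with 1 array left out. Sign changes met genes that did not pass or were below background. They were Il20ra (0.04 with normexp, 0.06 in the value table), Siglech (0.0 at a floor of 8), Ebf1 (-0.03 within slide 2), Cnot3 (-0.02 within slide 2, -0.01 to 0.1 with 1 array left out), Irf4 (0.0 within slide 2) and Ccnd2 (-0.08 to 0.0 with 1 array left out). Cd79a was at 0.03 with normexp, 0.01 in the value table, 0.07 with the slide block, 0.16 within slide 1, 0.16 without Ebf1wt 1 and 0.01 without Ebf1-H240A 1. Dntt was at 0.04 with normexp, 0.02 in the value table and -0.27 to 0.0 with 1 array left out. Lef1 was at 0.03 with normexp, 0.22 within slide 1 and -0.17 to 0.01 with 1 array left out. Myc was at -0.0 with probes averaged, -0.01 with the slide block, -0.13 within slide 2, and -0.06 to 0.09 with 1 array left out. Mycn was at -0.06 with normexp, -0.09 in the value table, -0.03 within slide 2, and -0.02 to 0.13 with 1 array left out. Sit1, Pou2af1, Thrb and Tnfrsf11a did not pass after normexp correction (adjusted p = 0.213, 0.232, 0.901 and 0.946), and the cause was not tested.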

Other observations

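Contractile protein genes, a list chosen after their values were seen, had 5 of 52 members lower and 2 higher with Ebf1-H240A, with a median of 0.05. The share called was 13.5% against 6.36% of all genes, which for a list chosen this way is not a result. Tnnt2, the cardiac troponin T gene, was not above background in Empty, at 10.15, 9.83 and 10.05 with Ebf1wt, against 8.09, 8.10 and 8.14 with Ebf1-H240A (-1.90, SE 0.11, adjusted p = 0.000788). Myl4, an atrial myosin light chain gene, was at 8.90 and 8.91 in Empty, 12.43, 12.26 and 12.13 with Ebf1wt, against 10.59, 10.81 and 10.62 with Ebf1-H240A (-1.60, SE 0.09, adjusted p = 0.000807). Mylk, the myosin light chain kinase gene, was lower too (-1.76, adjusted p = 0.0012), while Tpm2, a tropomyosin gene, was at 9.69, 9.53 and 9.63 with Ebf1wt, against 10.63, 10.92 and 10.53 with Ebf1-H240A (1.08, adjusted p = 0.0045). These 4 calls held with each array left out.

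Among 46 C-type lectins and killer lectin-like receptors, also chosen after their values were seen, 8 were lower and 1 was higher, with a median of -0.06. The share called was 19.6% against 6.36% of all genes. Because of how the list was chosen, that excess is not a result. Klra7 (-0.68, adjusted p = 0.00852), Klra15 (-0.72, adjusted p = 0.00729) and Klra23 (-0.95, adjusted p = 0.0117) were lower in every leave-one-out fit, and Klra2 was the gene that was higher. Klra1 (-0.80), Klra4 (-0.80), Klra16 (-0.71) and Klra20 (-1.15) were lost in 1, 3, 5 and 5 of those 8 fits. The Klra genes are close paralogs and their probes may share signal, so they are not separate evidence. After normexp correction Klra23 was at an adjusted p of 0.366. Of 23 S100 proteins and annexins, likewise chosen after their values were seen, 5 were higher and none lower. The share called was 21.7% against 6.36% of all genes, which for such a list is not a result either. With members that did not pass, 13 differences were above 0 and 10 below, with a median of 0.08. S100a6, a calcium-binding protein gene, was at 15.48, 15.58 and 15.55 with Ebf1wt, against 16.13, 16.30 and 16.09 with Ebf1-H240A (0.64, adjusted p = 0.00991).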
